A study of Homo sapiens with 2 samples.

Results

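Kinesins are motor proteins that use ATP to walk along microtubules or to take their ends apart. One set builds, moves and divides the mitotic spindle, and another carries vesicles, organelles, mRNAs and ciliary parts through the cell between divisions. Many genes of the mitotic set are transcribed mainly as cells prepare to divide, and their mRNAs are usually abundant in cycling cells. The transport set is best known from neurons, where several members are enriched, while others serve most cell types. The genes described here carry a symbol of KIF followed by a number. They were found by mapping the RefSeq transcripts in both deposited assemblies to current symbols, and an assembled model was added to a gene where it shared an exact intron with it on the same strand. This gave 39 kinesin genes of 23303 named genes. By role they were grouped into 13 mitotic, 15 transport and 11 other kinesins.

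Poly(A) RNA was sequenced from HCT116 cells, a line from a human colorectal carcinoma, that hold a tetracycline-inducible construct directed at USP49, a ubiquitin-specific protease that acts on histone H2B. There was 1 library labelled USP49 knockdown and 1 library labelled control; both came from the same inducible line, kept in medium with blasticidin and puromycin. The protocol gives a harvest 36 h after doxycycline in the same words for both libraries, and the labels do not say whether the RNA control was given doxycycline. As each group had 1 library, differences could not be set against a spread between replicates and no test was made; intervals below cover counting error only, and fragments copied by PCR are not independent molecules.

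The library labelled USP49 knockdown held 19910931 fragments and the control library 16331614. Levels are fragments per kilobase of RefSeq exon, scaled to total fragments (FPKM). Each ratio is a log2 ratio of (knockdown + 1) to (control + 1) in FPKM unless a counting interval stands beside it; those are linear ratios of fragments at equal depth. Over the 12050 genes whose mean reached 1 FPKM, 5861 lay above 0 and the median log2 ratio was −0.0038. USP49 itself had 1.09 FPKM in the library labelled knockdown on its RefSeq exons, from 69 fragments, and 0.896 FPKM in control, from 47. Its ratio was 0.14 by this measure and −0.89 when the assembled models of the gene were summed, so USP49 did not settle the label, and directions below refer to the library by its label only. Among epithelial markers, EPCAM stood at 144 FPKM in the library labelled knockdown and 152 FPKM in control, and KRT19 at 287 FPKM against 320 FPKM in control, while VIL1 was listed at 0 in both. CDH1, KRT8, KRT18 and CDX2 also lay above 1 FPKM in both libraries. KRT20 (0.306 FPKM in the library labelled knockdown and 0.509 FPKM in control) and LGR5 (0 against 0.0213 FPKM in control) lay below it. Of 13 markers of other cell types, 3 reached a mean of 1 FPKM. The leukocyte list's CD68, a lysosomal protein, stood at 12.6 FPKM in the library labelled knockdown and 9.14 FPKM in control (0.43), the fibroblast list's COL1A1 at 6.52 FPKM against 6.85 FPKM in control (−0.06), and the neuron list's SYT1 at 21.5 FPKM against 20.8 FPKM in control (0.05). From the same lists PTPRC, COL1A2 and NEFL were listed at 0 in both libraries.

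The kinesin groups were compared first by what lies at their transcription starts. The cell cycle genes homology region (CHR) is a short promoter element, bound by complexes built on the MuvB core, that is known for holding G2 and M phase genes down in resting cells. It is often found near CCAAT boxes, which NF-Y binds. RefSeq promoters (GRCh38.p14, 250 bases before to 50 after the start) were at hand for 33 kinesin genes, and were searched on both strands for the CHR core TTTGAA, its complement TTCAAA or the variant TTTAAA, and for CCAAT or its complement ATTGG. A gene was counted where any of its listed promoters held a match. A CHR core lay in the promoters of 11 of 13 mitotic, 2 of 12 transport and 0 of 8 other kinesins, against 27.9% of 27305 genes. In the stretch from −80 to 10, chosen after the matches had been seen, it lay in 10 of 13 mitotic and in no transport or other kinesin promoter, against 9.16% of all. A CCAAT box lay in that stretch in 9 mitotic, 2 transport and 3 other kinesins, against 18.8% of all. Both together were present in 8 of 13 mitotic kinesins and in 1.64% of all genes. Mitotic kinesin promoters had a median GC content of 62.0%, transport kinesin promoters 69.8% and all promoters 58.3%; how far base composition sets the matches was not tested. A match is a description of letters, not a bound site. The windows from −80 to 10 are shown for the 10 mitotic kinesins with a CHR core there, then for KIF22, which had a CCAAT box alone, and for the transport kinesins KIF5B, KIF3B and KIF1C, with CHR cores and CCAAT boxes in capitals:
KIF4A, chrX:70290024-70290113, plus strand: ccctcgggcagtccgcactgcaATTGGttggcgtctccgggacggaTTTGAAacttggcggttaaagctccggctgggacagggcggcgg
KIF4B, chr5:155013675-155013764, plus strand: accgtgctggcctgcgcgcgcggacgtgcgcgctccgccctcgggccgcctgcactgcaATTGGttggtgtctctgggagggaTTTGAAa
KIF11, chr10:92593050-92593139, plus strand: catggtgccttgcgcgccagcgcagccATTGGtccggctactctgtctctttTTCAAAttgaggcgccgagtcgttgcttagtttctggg
KIF14, chr1:200620742-200620831, minus strand: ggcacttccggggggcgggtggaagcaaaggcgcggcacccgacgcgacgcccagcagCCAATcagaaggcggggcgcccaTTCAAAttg
KIF18A, chr11:28108147-28108236, minus strand: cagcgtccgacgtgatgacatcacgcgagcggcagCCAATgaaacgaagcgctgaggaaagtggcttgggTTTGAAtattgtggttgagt
KIF18B, chr17:44947764-44947853, minus strand: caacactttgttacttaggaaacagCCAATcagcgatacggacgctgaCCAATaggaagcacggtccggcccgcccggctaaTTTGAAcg
KIF20A, chr5:138179032-138179121, plus strand: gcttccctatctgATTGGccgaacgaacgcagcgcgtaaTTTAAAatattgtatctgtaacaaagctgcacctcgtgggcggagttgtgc
KIF23, chr15:69414269-69414358, plus strand: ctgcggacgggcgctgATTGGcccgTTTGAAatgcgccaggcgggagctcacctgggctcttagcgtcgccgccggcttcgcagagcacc
KIF2C, chr1:44739757-44739846, plus strand: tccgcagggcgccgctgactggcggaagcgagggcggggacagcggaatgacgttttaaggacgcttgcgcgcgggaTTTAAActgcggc
KIF15, chr3:44761714-44761803, plus strand: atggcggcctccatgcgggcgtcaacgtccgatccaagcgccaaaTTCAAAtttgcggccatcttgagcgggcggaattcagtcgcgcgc
KIF22, chr16:29790671-29790760, plus strand: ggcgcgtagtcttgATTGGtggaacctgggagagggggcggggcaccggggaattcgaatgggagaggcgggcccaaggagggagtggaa
KIF5B, chr10:32056416-32056505, minus strand: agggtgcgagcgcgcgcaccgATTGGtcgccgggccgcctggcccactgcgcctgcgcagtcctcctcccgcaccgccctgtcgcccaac
KIF3B, chr20:32277571-32277660, plus strand: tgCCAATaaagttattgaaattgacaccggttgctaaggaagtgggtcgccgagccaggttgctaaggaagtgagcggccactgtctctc
KIF1C, chr17:4997870-4997959, plus strand: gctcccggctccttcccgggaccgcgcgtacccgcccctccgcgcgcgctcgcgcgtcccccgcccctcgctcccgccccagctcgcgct

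In these windows the CCAAT box lay before the CHR core in all 8 promoters that held both. The first letters of the box and the core were 24 bases apart in KIF4A and KIF4B, 25 in KIF11, 23 in KIF14, 26 in KIF20A and 35 in KIF18A. KIF4B is a near-copy of KIF4A, and their windows hold nearly the same letters around both motifs, so they are not separate cases in these counts. KIF18B held a pair of CCAAT boxes, 57 and 34 bases before its CHR core, and in KIF23 the distance was 9 bases. KIF20B had no match in this stretch and a pair of CHR cores after its start, the first at 25. KIF2B had none of these motifs within −80 to 10 and no CHR core in the whole promoter. Among transport kinesins, CHR cores were found only upstream of the stretch, at −140 in KIF5B and at −241 in KIF16B.

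**Figure D1:**
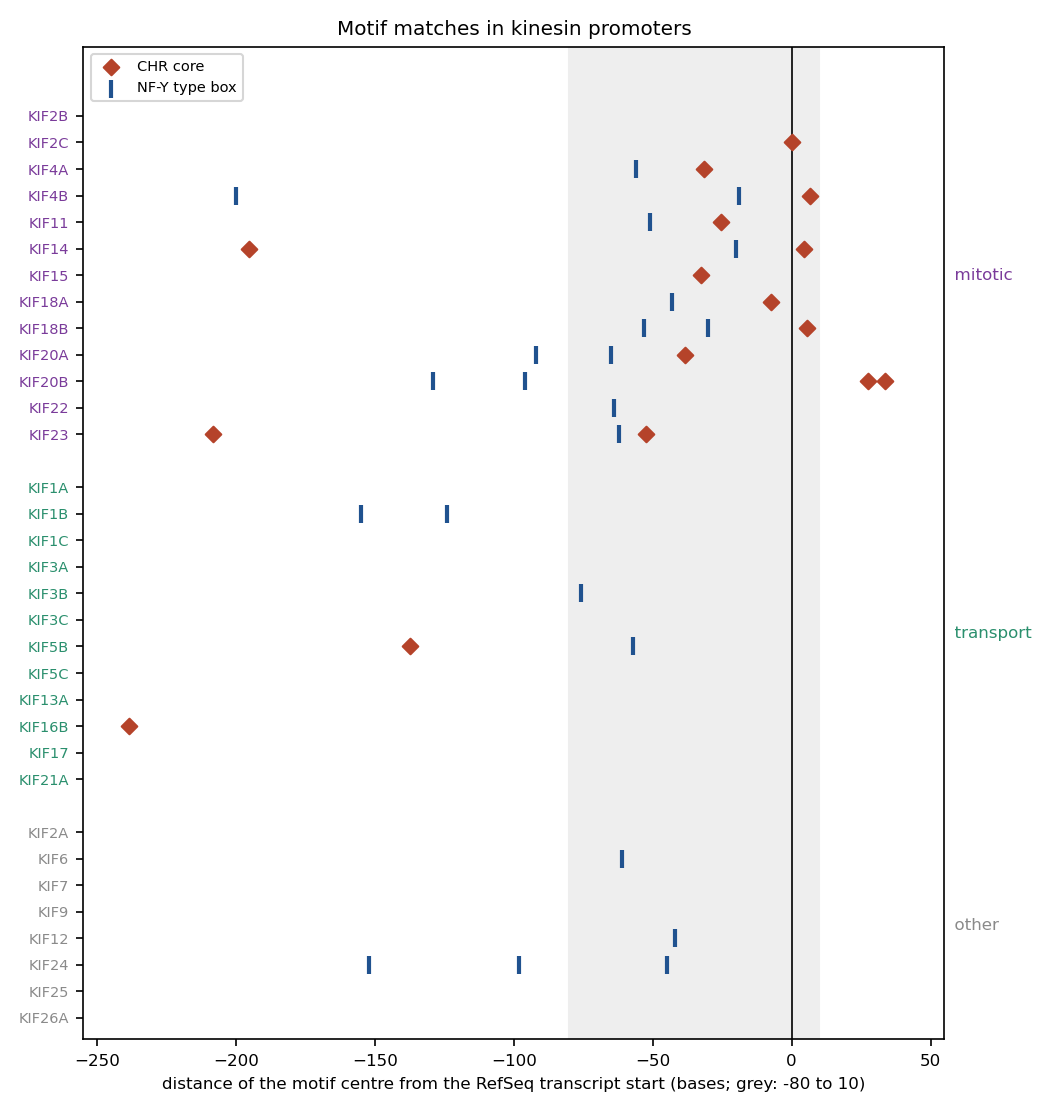
Motif matches in the promoters of 33 kinesin genes (rows, coloured by group), by distance in bases from the RefSeq transcript start; diamonds are CHR cores, bars are CCAAT boxes on either strand (NF-Y type box), and the grey band runs from −80 to 10. The diamonds inside the band belong to 10 mitotic kinesins, and transport and other kinesins have none there. Only the first listed promoter of each gene is drawn, so CCAAT boxes in further promoters of KIF1B, KIF5C and KIF12 are not shown.

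Of the 39 genes, 30 had a mean of at least 1 FPKM and were measured: 12 mitotic, 13 transport and 5 other kinesins. The mitotic kinesins held the larger part of the kinesin mRNA. Summed over all 39 genes, measured or not, they made up 56.4% of the level in the library labelled knockdown and 56.2% in control, transport kinesins 37.3% against 37.4% in control, and other kinesins 6.32% against 6.45% in control. Differences were counted past a log2 ratio of 0.32 in either direction, the smaller threshold, and past 2-fold. Of the 30 kinesins 0 passed the smaller threshold, against 3.76% of the 12050 genes measured, and 0 passed 2-fold, against 0.78%. The median log2 ratio was 0.05 over the mitotic kinesins, with 8 above 0 and 4 below, and 0.02 over the transport kinesins, with 9 above and 4 below. The other kinesins had a median of −0.13, with 1 above and 4 below. This median includes KIF7, whose fragments came from models of the opposite strand. With models of the own strand the median was −0.04 over 4 genes. The median of the mitotic kinesins was above that of the transport kinesins by 0.03, a difference with no test. In these bulk libraries, a change in the share of dividing cells and a change in mRNA per cell cannot be told apart. That difference was −0.01 when models were summed and −0.01 when fragments on the named models were counted without length. Fragments were also pooled over all members of each group, measured or not. The linear depth-scaled ratio was then 1.03 for mitotic (exact 95% interval 1.01 to 1.05), 1.02 for transport (1.00 to 1.04) and 1.00 for other kinesins (0.956 to 1.05). KIF5B alone held 11881 of the 30287 transport fragments in the library labelled knockdown and 9042 of 24310 in control. The pooled transport ratio thus leans on that gene, and it was not computed without it.

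**Figure D2:**
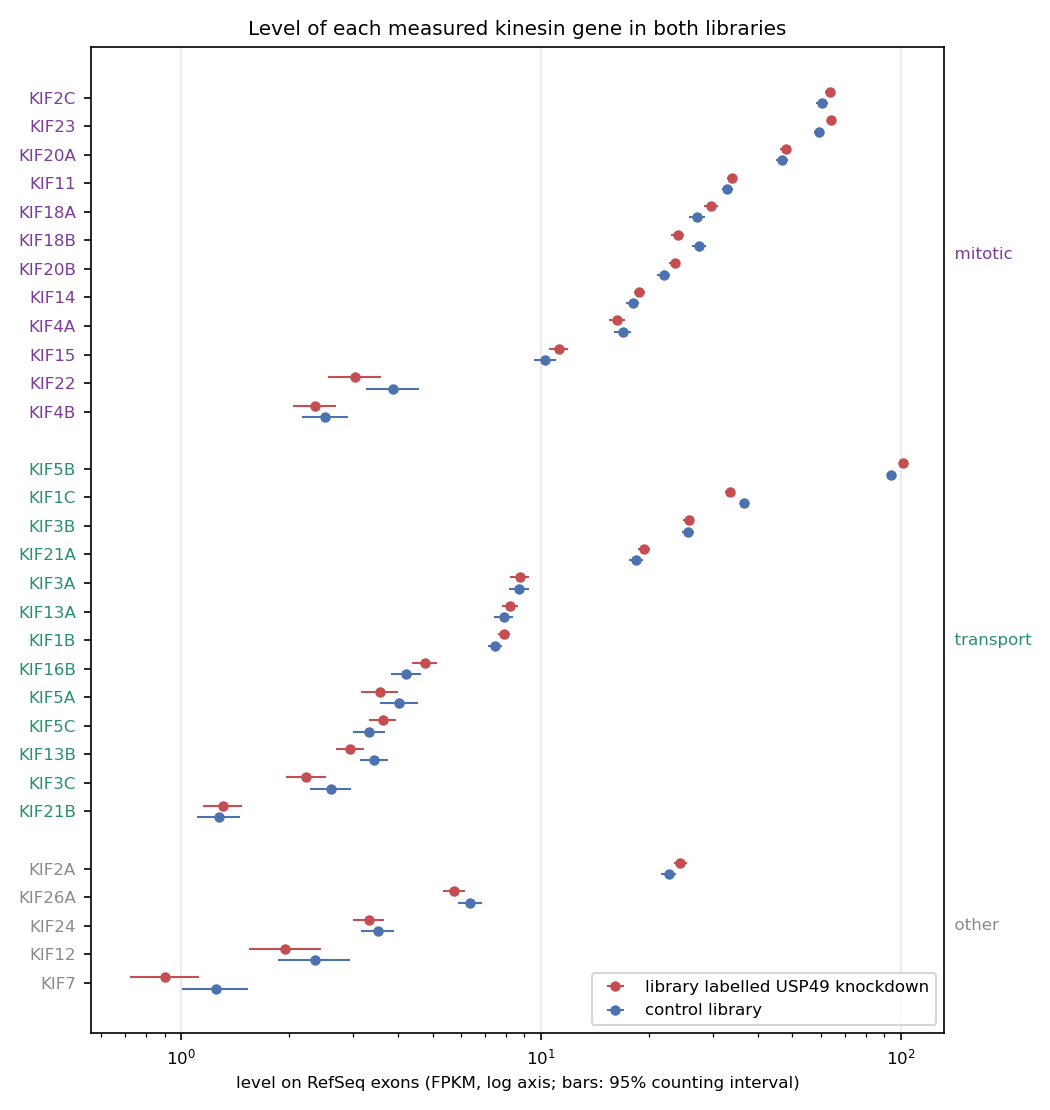
Level of the 30 measured kinesin genes in FPKM on a log axis, with the library labelled USP49 knockdown in red above the control library in blue; bars are 95% counting intervals. The libraries lie close together in each row, and KIF5B, at 101 FPKM in the library labelled knockdown and 94.0 FPKM in control, has the highest level.

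Spindle assembly begins with motors that push or hold its poles apart. KIF11, the kinesin-5 that slides antiparallel microtubules, stood at 33.9 FPKM in the library labelled knockdown and 33.0 FPKM in control (log2 ratio 0.04). KIF15, a kinesin-12 that can take over part of that work, was lower, at 11.2 FPKM in the library labelled knockdown and 10.3 FPKM in control (0.11). Both were carried by a single RefSeq model in each library, so their values compare like with like.

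Motors that shorten microtubules and align chromosomes came next. KIF2C (MCAK), which takes microtubule ends apart at centromeres, had 63.7 FPKM in the library labelled knockdown and 60.3 FPKM in control (0.08; ratio 1.05, exact 95% interval 1.00 to 1.11). KIF18A, the kinesin-8 that dampens chromosome movement at the metaphase plate, had 29.7 FPKM in the library labelled knockdown and 27.1 FPKM in control (0.13; ratio 1.09, 1.02 to 1.17). KIF18B, which acts on the plus ends of astral microtubules, ran the other way, at 24.0 FPKM in the library labelled knockdown and 27.5 FPKM in control (−0.19; ratio 0.87, 0.818 to 0.927). The counting intervals of the KIF18B levels did not overlap, and neither did those of KIF1C, KIF5B and KIF23. The share of all genes with intervals that do not overlap was not computed. When its models were summed the ratio of KIF18B was −0.01; the assembled model beside its RefSeq model was 2883 bases long in the library labelled knockdown and 4593 bases in control. KIF2B, a relative of KIF2C, was listed at 0 in both.

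Chromokinesins bind chromosome arms. KIF4A stood at 16.2 FPKM in the library labelled knockdown and 16.9 FPKM in control (−0.05). KIF4B is an intronless near-copy of KIF4A, so its 2.35 FPKM in the library labelled knockdown and 2.52 FPKM in control (−0.07) may hold fragments of KIF4A and are uncertain. KIF22 (Kid), which drives chromosome arms away from the poles, had 3.05 FPKM in the library labelled knockdown and 3.88 FPKM in control (−0.27; ratio 0.786, 0.617 to 1.00). Of the 30 measured kinesins it had the lowest log2 ratio with a pseudocount of 1 FPKM; the linear ratio was lower for KIF7 (0.721). Its level on chromosome 16 understates the gene, since hg18 holds a second copy on an unplaced stretch of that chromosome. The chromosome 16 copy held 137 fragments in the library labelled knockdown and 143 in control, and the other copy 110 against 101 in control. Over both copies there were 247 fragments against 244 in control, a linear depth-scaled ratio of 0.83.

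Of the motors of the midzone and of cytokinesis, KIF23 and KIF20A were among the most abundant kinesins, and KIF20B and KIF14 stood lower. KIF23 (MKLP1), the motor of centralspindlin, had 64.1 FPKM in the library labelled knockdown and 59.3 FPKM in control (0.11; ratio 1.08, 1.04 to 1.13). KIF20A (MKLP2), which brings the chromosomal passenger complex to the midzone, had 47.9 FPKM in the library labelled knockdown and 46.8 FPKM in control (0.03). Its relative KIF20B (MPP1) stood at 23.5 FPKM in the library labelled knockdown and 21.9 FPKM in control (0.10). KIF14, which works with citron kinase in the last steps of division, had 18.8 FPKM in the library labelled knockdown and 18.0 FPKM in control (0.06). All of these lay above 0, each by less than the smaller threshold; by the sum of models KIF20B lay at −0.01.

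Among transport kinesins the heavy chains of conventional kinesin covered the widest range. KIF5B, the form made in most cells, was the most abundant kinesin, with 101 FPKM in the library labelled knockdown and 94.0 FPKM in control (0.11; ratio 1.08, 1.05 to 1.11). It was read from 11881 fragments in the library labelled knockdown and 9042 in control. KIF5A, best known from neurons, had 3.57 FPKM in the library labelled knockdown and 4.04 FPKM in control (−0.14), and KIF5C, also enriched in neurons, 3.63 FPKM against 3.33 FPKM in control (0.10). KIF5A lay at 0.05 by the sum of models. In both libraries its assembled models ran past the RefSeq end, by 1852 bases in the library labelled knockdown and 1850 bases in control, and models covering that stretch held 164 fragments there against 112 in control, or 4.45 FPKM against 3.70 FPKM in control (0.21).

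The kinesin-2 motors KIF3A and KIF3B pair with each other, and with the adaptor KIFAP3, to carry cargo in cilia and in the cytoplasm. KIF3B stood at 25.8 FPKM in the library labelled knockdown and 25.6 FPKM in control (0.01) and KIF3A lower, at 8.72 FPKM against 8.70 FPKM in control (0.0032). The alternative partner KIF3C was lower, with 2.23 FPKM in the library labelled knockdown and 2.61 FPKM in control (−0.16). KIF17, a kinesin-2 of dendrites and cilia, was below the minimum, at 0.355 FPKM against 0.276 FPKM in control. By the sum of models KIF3A had a ratio of 0.42, past the smaller threshold.

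The kinesin-3 motors carry vesicles and endosomes. KIF1C, which moves dense-core vesicles and integrin-bearing vesicles, was the most abundant of them, with 33.4 FPKM in the library labelled knockdown and 36.8 FPKM in control (−0.13; ratio 0.909, 0.874 to 0.946). KIF1B, a motor of mitochondria and of synaptic vesicle precursors, had 7.88 FPKM in the library labelled knockdown and 7.45 FPKM in control (0.07). KIF1A, its neuronal relative, held 1 fragment in the library labelled knockdown and 0 in control. KIF13A, which carries recycling endosomes, had 8.22 FPKM in the library labelled knockdown and 7.87 FPKM in control (0.06). KIF13B, which carries the phosphoinositide-binding protein centaurin-alpha, had 2.95 FPKM in the library labelled knockdown and 3.44 FPKM in control (−0.17; ratio 0.859, 0.757 to 0.973). KIF16B, which binds early endosomes through a PX domain, had the highest log2 ratio of the 30 measured kinesins, with 4.75 FPKM in the library labelled knockdown and 4.22 FPKM in control (0.14; ratio 1.13, 0.994 to 1.28). The interval for KIF16B took in no difference and that for KIF13B did not. The kinesin-4 motors KIF21A and KIF21B restrain microtubule growth and were grouped with transport. KIF21A had 19.4 FPKM in the library labelled knockdown and 18.3 FPKM in control (0.07), and KIF21B 1.30 FPKM against 1.28 FPKM in control (0.02).

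Of the other kinesins, KIF2A, a microtubule depolymerase of spindle poles and of growing neurites, stood apart at 24.4 FPKM in the library labelled knockdown and 22.7 FPKM in control (0.10; ratio 1.08, 1.01 to 1.15). KIF26A, a kinesin without ATP-driven movement, had 5.74 FPKM in the library labelled knockdown and 6.35 FPKM in control (−0.13). KIF24, which restrains cilium formation at the mother centriole, had 3.32 FPKM in the library labelled knockdown and 3.52 FPKM in control (−0.07). It shares 144 exonic bases with UBAP1, and with models of its own strand alone its ratio was 0.04. KIF12 had 1.95 FPKM in the library labelled knockdown and 2.35 FPKM in control (−0.19), from 78 fragments against 77 in control. KIF7, a regulator of Hedgehog signalling at the cilium tip, had 82 fragments on its exons in the library labelled knockdown and 93 in control (−0.24), but all of them came from models of the opposite strand, where TICRR overlaps it by 53 bases of exon. On its own strand KIF7 was listed at 0 in both. As no step that marks strand is described, that strand is one of models, not of reads. These fragments can thus not be assigned to KIF7 or to another gene, and the ratio is not read as a value of KIF7.

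The 9 members below the minimum were KIF1A, KIF2B and KIF17, already given, and another 6 of the group of other kinesins. KIF27 had 1.03 FPKM in the library labelled knockdown and 0.816 FPKM in control. KIF26B, a relative of KIF26A, had 0.551 FPKM against 0.565 FPKM in control. KIF9, known from motile cilia, held 2 fragments in each library, none of them on models of its own strand. KIF6 and KIF19 held 0 fragments in the library labelled knockdown and 1 in control each. KIF25 was listed at 0 in both, and KIF28P was not analysed here. KIF9-AS1 matches the symbol pattern, encodes no motor and was listed at 0 in both.

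**Figure D3:**
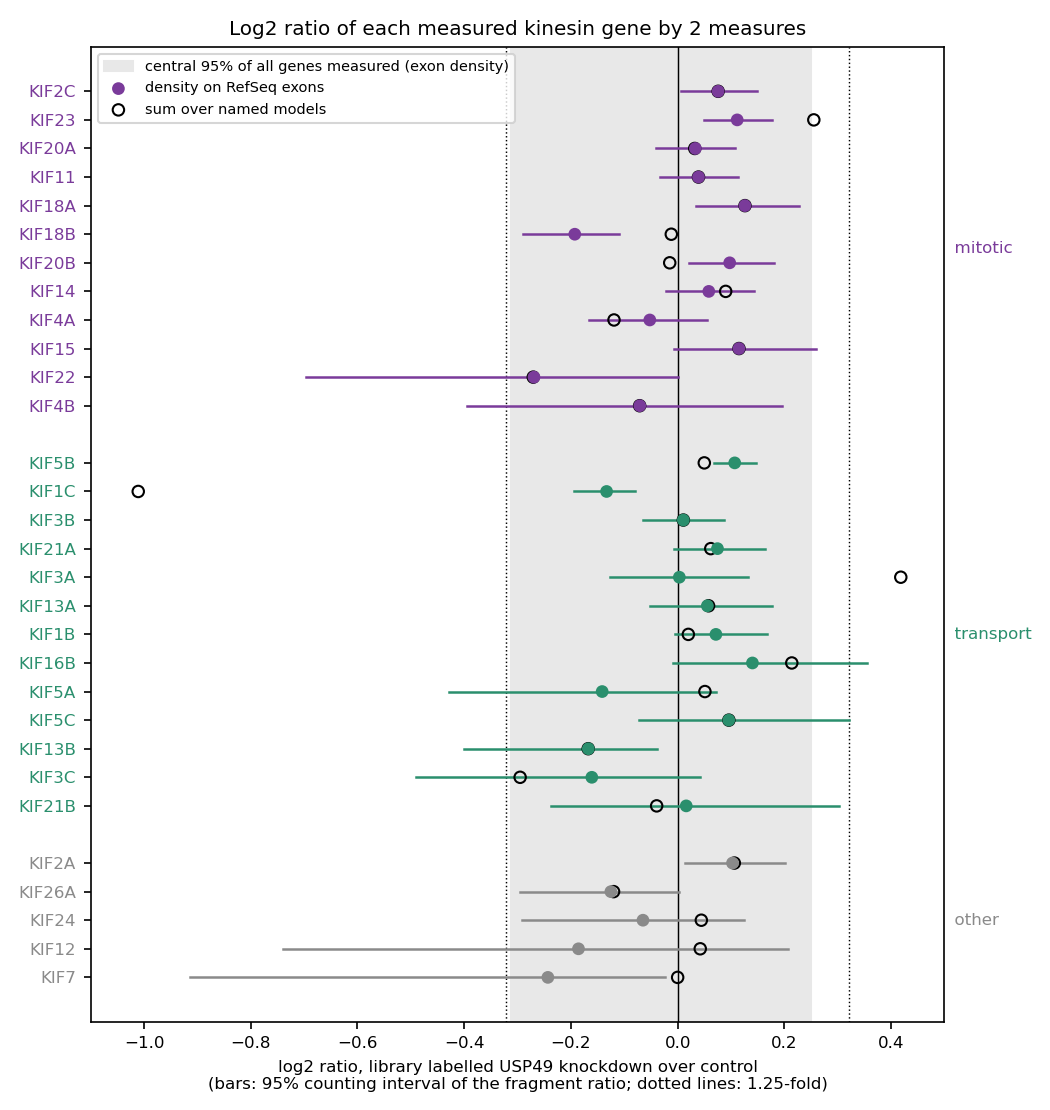
Log2 ratio of the library labelled USP49 knockdown over control for the 30 measured kinesins: filled points are density on RefSeq exons, with 95% counting intervals of the fragment ratio, open circles are sums over named models, and the grey band spans −0.31 to 0.25, the central 95% of the 12050 genes measured. Filled points all lie within a log2 ratio of 0.32 in either direction, while the open circles of KIF1C and KIF3A lie outside; the open circle of KIF7 at 0 stands for models listed at 0 in both libraries.

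The libraries carried several kinesin genes on different models. Kinesin genes had 56 models above 0 in the library labelled knockdown and 63 in control. RefSeq models held 86.7% of their fragments in the library labelled knockdown and 69.7% in control. By the sum over named models 2 kinesins, KIF1C and KIF3A, passed the smaller threshold, against 17.2% of 11643 genes, and KIF1C alone passed 2-fold, against 3.39%. KIF1C summed to 33.6 FPKM in the library labelled knockdown and 68.8 FPKM in control (−1.01). In the library labelled knockdown all 5272 fragments lay on its RefSeq model of 7917 bases. In control 1605 fragments lay on that model, and 2385 and 789 on assembled models of 3878 and 2700 bases that end 4073 bases short of the RefSeq end. The total over models was 5272 fragments in the library labelled knockdown and 4779 in control. KIF3A had a further assembled model of 1896 bases with 169 fragments in the library labelled knockdown and none in control. KIF5B kept 89.2% of its fragments on the RefSeq model in the library labelled knockdown and 58.7% in control, where an assembled model with another first exon held 3746 fragments.

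**Figure D4:**
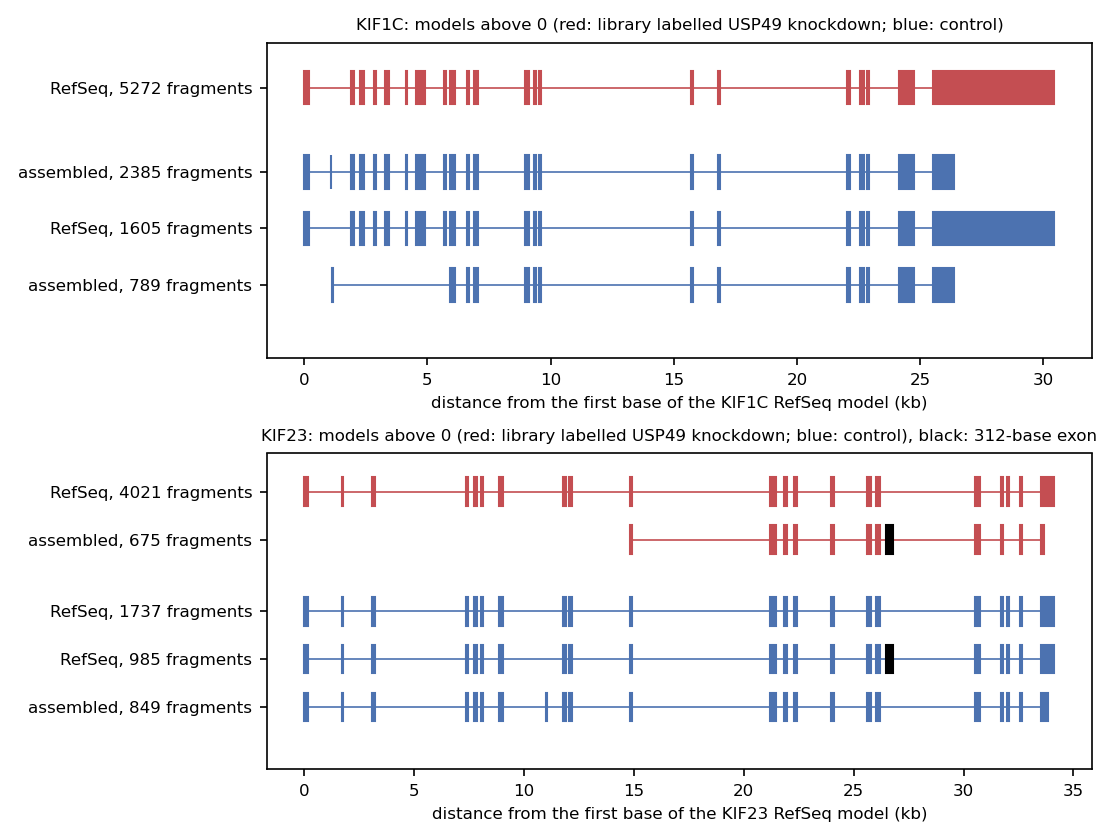
Models above 0 of KIF1C and KIF23, with exons as boxes to scale along the distance in kb from the first base of the RefSeq model (the narrowest boxes are widened to stay visible), the library labelled USP49 knockdown in red above control in blue; labels give the fragments on each model. The control assembled models of KIF1C end before the last 4073 bases, and the black 312-base exon of KIF23 sits in an assembled model in the library labelled knockdown and in a RefSeq model in control.

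Alternative forms were compared in the 8 kinesin genes with 2 or more RefSeq transcripts and 100 or more fragments in each library, namely KIF1B, KIF2A, KIF13A, KIF16B, KIF18B, KIF21A, KIF21B and KIF23. Shares are of the summed model level, and they rest on how each assembly divided fragments over models, for which no error can be given. KIF23 has an alternative coding exon of 312 bases (hg18 chr15:67520161-67520472) that marks its long form. Models with the exon held 22.4% of the KIF23 level in the library labelled knockdown and 25.4% in control, from 675 fragments against 985 in control. The RefSeq long form itself held no fragments in the library labelled knockdown, where a 13-exon assembled model carried the exon, and held all 985 in control. In KIF13A, models with both alternative exons, of 105 and 39 bases, held 71.0% of the level in the library labelled knockdown and 75.5% in control. In KIF16B the 153-base exon was in all models in the library labelled knockdown and in 79.3% of the level in control, where 96 fragments lay on a model without it. KIF21A kept its 69-base exon in every model above 0 of both libraries and left out its 21-base and 39-base exons, and KIF21B left out its 39-base exon in both. All of these exons keep the reading frame by length. The exons that varied, were kept in both libraries or were left out in both are shown from GENCODE 29 (GRCh38), as the letters each choice adds or removes, with the exon in capitals and 12 bases of each neighbouring exon in lower case; of the KIF23 exon the first 200 bases are given, after 12 bases of the exon before it:
KIF23 312-base exon, first 200 bases, chr15:69440768-69440967, plus strand: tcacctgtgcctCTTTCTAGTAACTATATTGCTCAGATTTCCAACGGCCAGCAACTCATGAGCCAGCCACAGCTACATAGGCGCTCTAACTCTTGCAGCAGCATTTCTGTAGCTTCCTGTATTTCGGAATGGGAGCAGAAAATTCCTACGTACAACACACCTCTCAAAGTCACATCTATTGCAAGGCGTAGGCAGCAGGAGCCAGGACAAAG
KIF13A 105-base exon, chr6:17771114-17771218, minus strand: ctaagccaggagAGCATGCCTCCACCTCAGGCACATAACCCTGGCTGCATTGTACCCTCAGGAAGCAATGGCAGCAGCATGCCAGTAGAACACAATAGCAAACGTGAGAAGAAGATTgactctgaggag
KIF13A 39-base exon, chr6:17789872-17789910, minus strand: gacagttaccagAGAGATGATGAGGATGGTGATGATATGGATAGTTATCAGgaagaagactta
KIF16B 153-base exon, chr20:16374257-16374409, minus strand: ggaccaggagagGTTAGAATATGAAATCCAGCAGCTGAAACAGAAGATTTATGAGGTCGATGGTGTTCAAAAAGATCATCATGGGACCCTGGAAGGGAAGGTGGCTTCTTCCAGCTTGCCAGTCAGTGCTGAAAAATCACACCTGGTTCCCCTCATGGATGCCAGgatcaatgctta
KIF21A 69-base exon, chr12:39333212-39333280, minus strand: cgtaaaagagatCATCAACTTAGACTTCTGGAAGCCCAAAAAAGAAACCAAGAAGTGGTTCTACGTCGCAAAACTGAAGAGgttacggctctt
KIF21A 21-base exon, chr12:39330242-39330262, minus strand: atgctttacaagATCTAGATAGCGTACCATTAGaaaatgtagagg
KIF21A 39-base exon, chr12:39346466-39346504, minus strand: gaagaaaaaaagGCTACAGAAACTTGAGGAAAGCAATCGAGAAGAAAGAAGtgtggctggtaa
KIF21B 39-base exon, chr1:200983056-200983094, minus strand: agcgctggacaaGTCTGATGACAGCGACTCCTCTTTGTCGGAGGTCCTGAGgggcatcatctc

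The 312-base exon of KIF23 was thus present at close levels, 17.6 FPKM in the library labelled knockdown and 16.6 FPKM in control, under different models. KIF2A left out its 114-base and 203-base exons in both libraries, and its forms differed by the donor site of an exon that is 123 or 66 bases long. Forms with the longer exon held 51.6% of the level in the library labelled knockdown and 54.0% in control. KIF1B is made as a short and a long form, with different tails, the long one of which ends 73006 bases further on. The short form held 39.0% of the level in the library labelled knockdown and 35.3% in control. Among the long models, the RefSeq form was above 0 only in the library labelled knockdown, with 508 fragments. The assembled long models of both libraries left out an exon that this RefSeq form holds. KIF18B kept 76.6% of its fragments on 1 RefSeq form in the library labelled knockdown and 75.4% in control, and its other RefSeq form was listed at 0 in both. KIF21A had an assembled model in control, with 911 fragments or 45.8% of its fragments there, that left out an exon not among those shown. In the library labelled knockdown all 2562 fragments of KIF21A lay on the RefSeq model, which holds that exon. At the 3′ end of KIF2A the control assembly extended the gene by 5126 bases, and in the library labelled knockdown 1 unspliced model without a gene name covered the same stretch. That stretch stood at 9.73 FPKM in the library labelled knockdown, from 994 fragments, and 13.0 FPKM in control, from 1092 (−0.39, past the smaller threshold). Counted as fragments on named models without length, KIF2A lay at −0.33, past the smaller threshold.

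Genes that work with the kinesins were measured the same way, in lists chosen for their roles, and by density on exons 0 of their 48 measured members passed the smaller threshold, against 3.76% of all genes. By the sum of models 5 passed it, against 17.2% of all genes: TRAK1 (−0.36), MAPK8IP1 (−0.57) and MAPK8IP3 (−4.24) among adaptors, and DYNLT1 (0.34) and ACTR10 (0.90) of dynein and dynactin. For MAPK8IP3 no model in the library labelled knockdown took the gene's name, so its sum there was 0. Its exons held 1502 fragments in that library and 1407 in control, so −4.24 is not a value of its level. Motors of the kinesin superfamily with other symbols had a median log2 ratio of −0.04 over 3 measured genes. CENPE, the kinesin-7 of kinetochores, had 15.3 FPKM in the library labelled knockdown and 13.9 FPKM in control (0.12), KIFC3 had 11.2 FPKM against 11.6 FPKM in control (−0.04), and KIFC2 37.6 FPKM against 39.6 FPKM in control (−0.08). KIFC1, the minus-end motor HSET that clusters spindle poles, held 4 fragments against 3 in control on chromosome 6, and 23 against 10 in control on an alternative haplotype of that chromosome, so it was not measured. Light chains and adaptors of transport kinesins had a median of −0.03, with 4 of 11 above 0. The JNK scaffolds SPAG9 (0.18) and MAPK8IP1 (−0.25) stood at opposite ends, beside KIFAP3 (0.08) and MAPK8IP3 (−0.18). MAPK8IP1 had 2.96 FPKM in the library labelled knockdown and 3.72 FPKM in control.

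Partners of the mitotic motors had a median of −0.01, with 6 of 13 above 0. The highest ratios were those of ANLN, the anillin scaffold of the contractile ring, at 92.7 FPKM in the library labelled knockdown and 82.2 FPKM in control (0.17), and of ECT2, the exchange factor that centralspindlin recruits, at 73.4 FPKM against 65.8 FPKM in control (0.16). The lowest were the kinase PLK1, at 94.4 FPKM in the library labelled knockdown and 103 FPKM in control (−0.12), and citron kinase CIT, the partner of KIF14, at 8.67 FPKM against 9.31 FPKM in control (−0.09). Dynein and dynactin, which move the opposite way along microtubules, had a median of 0.0011 over 21 genes. DYNLRB1 (0.23) and ACTR10 (0.19) were highest and NDE1 (−0.14) and DYNC1H1 (−0.08) lowest. The heavy chain DYNC1H1 stood at 51.4 FPKM in the library labelled knockdown and 54.5 FPKM in control.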

How the data were processed

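Poly(A) RNA-seq assemblies of 1 library labelled USP49 knockdown and 1 control library of HCT116 cells were used. Per the submitters' processing notes, TopHat, Bowtie, SAMtools, Picard, Cufflinks and bedtools were used with build hg18; those notes state no versions. The deposited attribute is an FPKM with interval bounds for each transcript model, per the file columns. In loci with 1 model the bounds returned a whole fragment number, within 0.02, in 94.5% of loci of the library labelled knockdown and 94.9% in control, and the value held no term for depth. Of RefSeq or spliced models, 89.2% in the library labelled knockdown and 89.6% in control followed fragments over length minus 47 bases; unspliced assembled models had a larger correction.

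Fragment numbers were recovered from this relation, spread evenly over each model, and summed on the RefSeq exons of each gene from models of either strand, since no step that marks strand is described. They were scaled to total fragments, whose ratio between the library labelled knockdown and control was 1.22. Genes with 300 or more exonic bases and a mean of at least 1 FPKM were measured, with a pseudocount of 1 FPKM, which understates ratios of low genes. Intervals are exact Poisson or binomial (Clopper-Pearson) at 95%. Symbols came from the GRCh38.p14 RefSeq table, by accession for 39275 accessions and from the files for 665, with 1156 unnamed. Thresholds were a log2 ratio of 0.32 and 2-fold; no p-value was computed. The members, the grouping, the lists, the exon measure and the thresholds were chosen with earlier results of these data known. All members are named, and of each partner list the 2 highest and 2 lowest ratios. The calculation was tested on simulated data. Alternatives were other gene measures, scalings, pseudocounts, filters and groupings. Chromatin data were not analysed here. Python 3, numpy, pandas, scipy and matplotlib were used.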

Additional observations from a re-analysis of the deposited data

How the results depend on the processing

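The count of kinesins past a log2 ratio of 0.32, 0 of 30 by density on exons, was 2 by the sum of models (KIF1C and KIF3A, against 17.2% of all genes), 1 by fragments on named models without length (KIF2A, against 13.2%), 1 with levels set to a common total as TPM (KIF7, against 7.36%) and 2 with a pseudocount of 0.1 (KIF7 and KIF22, against 5.99%). All fragments of KIF7 came from models of the opposite strand. The count stayed 0 with models of the own strand, against 3.84% of all genes. With the same introns in both libraries it was 0 of 13, against 1.65%. It stayed 0 with scaling by the median ratio (3.77% of all genes) and with a pseudocount of 5 (1.63%). It was also 0 with no minimum level (3.75%) or a minimum of 5 FPKM (2.09%), and without genes that share exonic bases (2.67%). Without KIF4B and KIF22, an alternative chosen after seeing the data, it was 0 as well (3.76%). Past 2-fold the count was 0 in all of these except the sum, where it was 1. With no depth scaling, which leaves in the difference in fragments and moves the median of all genes to 0.26, 12 of 31 kinesins passed a log2 ratio of 0.32, against 30.1% of all genes, and 0 passed 2-fold. The medians were then 0.32 for mitotic, 0.29 for transport and 0.14 for other kinesins, and 0.22 for kinesins with other symbols, 0.25 for light chains and adaptors, 0.27 for mitotic partners and 0.26 for dynein and dynactin. The other kinesins had a median of 0.04 by the sum, over 5 genes with KIF27 measured and KIF7 not, and 0.02 with the same introns, over 2 genes. Their sign turned there, but the genes measured were not the same. The median was −0.04 with models of the own strand, over 4 genes, and −0.01 with a minimum of 5 FPKM, over 2 genes. The ratio of USP49 was −0.89 by the sum. Of single kinesin ratios, 6 moved by more than their counting error with the sum, 2 with fragments without length and 23 with no depth scaling; none of the other settings moved any of those it kept. No paired analysis was possible because each group had 1 library.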
